A study of Mus musculus with 6 samples.

Results

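The mRNA of 10 cytosolic chaperone genes of the heat shock response was followed in the mouse liver after acetaminophen: Hspa8, Hspa1a, Hspa1b, Hsph1, Dnajb1, Dnaja1, Bag3, Hspb8, Hspb1 and Hsp90aa1. They were taken by gene name, and all 10 are among the 55385 genes of the deposited table. Poly(A) RNA of 6 livers was sequenced, from mice of the C57BL/6 strain aged 6 weeks, with 2 animals in each of 3 groups. Optn-/- mice (replicates 4 and 5), which lack the autophagy receptor optineurin, and wild-type mice (replicates 1 and 4) received acetaminophen at 500 mg/kg. Wild-type controls (replicates 3 and 6) were given phosphate-buffered saline instead, in 200 µL, and every liver was collected 6 h after injection. The labels do not say how the Optn-/- allele was made or whether it acts in all cells. Optn-/- mice without acetaminophen were not analysed here, so the knockout livers differ from the saline livers in genotype and drug together.

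Acetaminophen overdose is a standard model of acute liver injury, in which a reactive metabolite formed in hepatocytes binds protein and damages mitochondria. Heat shock proteins hold unfolded proteins in solution, refold them or pass them on for degradation, and under protein damage the factor HSF1 raises the transcription of many of them. HSP70 proteins do the central work, J-domain proteins deliver clients to them, exchange factors release the clients, small heat shock proteins hold unfolded proteins, and HSP90 matures signalling proteins. BAG3 joins HSPB8 to HSP70 in a complex that, with the ubiquitin ligase STUB1, directs damaged proteins to autophagy.

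HSF1 binds inverted repeats of the unit GAA in promoters, so the stretches before the start of 5 members are shown. They are the RefSeq windows (GRCm38.p6) of 250 bases before each start, printed 5′ to 3′ on the strand of the gene, with each match to GAANNTTC in capitals. Hspa1a and Hspa1b were chosen because they are near copies, Hspb1 because it holds a pair of matches, and Hspb8 and Bag3 because they rose after acetaminophen. Dnajb1 also rose but its windows are not printed, and Hspa8 rose but had no window.
Hspa1a, chr17:34972157-34972406, minus strand: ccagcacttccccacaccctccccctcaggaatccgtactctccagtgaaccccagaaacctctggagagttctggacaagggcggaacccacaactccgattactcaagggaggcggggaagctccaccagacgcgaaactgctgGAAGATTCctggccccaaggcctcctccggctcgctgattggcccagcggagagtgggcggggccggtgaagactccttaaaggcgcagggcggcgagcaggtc
Hspa1b, chr17:34959239-34959488, minus strand: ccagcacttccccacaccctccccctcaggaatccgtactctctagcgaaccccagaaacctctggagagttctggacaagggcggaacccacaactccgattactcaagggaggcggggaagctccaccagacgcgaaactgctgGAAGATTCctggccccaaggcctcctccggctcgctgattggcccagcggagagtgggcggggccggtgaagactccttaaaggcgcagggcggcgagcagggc
Hspb1, chr5:135887669-135887918, plus strand: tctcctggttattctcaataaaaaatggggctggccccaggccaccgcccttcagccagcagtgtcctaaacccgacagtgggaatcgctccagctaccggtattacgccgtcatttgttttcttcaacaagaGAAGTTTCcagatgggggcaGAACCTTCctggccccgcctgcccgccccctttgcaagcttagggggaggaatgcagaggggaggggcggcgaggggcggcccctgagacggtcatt
Hspb8, chr5:116422865-116423114, minus strand: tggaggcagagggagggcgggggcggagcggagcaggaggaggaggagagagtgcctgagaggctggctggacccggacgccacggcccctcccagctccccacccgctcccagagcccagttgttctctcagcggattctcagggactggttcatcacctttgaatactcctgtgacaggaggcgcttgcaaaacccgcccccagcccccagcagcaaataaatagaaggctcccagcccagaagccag
Bag3, chr7:128523333-128523582, plus strand: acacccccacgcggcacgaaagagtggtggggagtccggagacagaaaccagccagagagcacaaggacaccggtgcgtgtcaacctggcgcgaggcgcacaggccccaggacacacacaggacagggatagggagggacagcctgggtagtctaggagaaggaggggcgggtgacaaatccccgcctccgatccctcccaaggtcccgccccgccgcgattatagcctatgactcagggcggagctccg

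The table of promoters held windows for 8 of the 10 members, 12 windows in all, and none for Hspa8 or Hsp90aa1. The search was for GAANNTTC and TTCNNGAA, which read the same on both strands, and the 2 can overlap in a run of 3 alternating units. The windows of Hspa1a and Hspa1b differ at 3 of 250 bases and each hold GAANNTTC once, with its first base 104 bases before the start (position -104). Hspb1 holds GAANNTTC at positions -117 and -97, and of 3 windows of Dnaja1 the first holds it at -124. The 2 windows of Hsph1 overlap and hold the same TTCNNGAA site, at -33 from the first start and -54 from the second. Those of Hspb8, Dnajb1 and Bag3 hold neither motif. Some windows lie largely within annotated exons of their own gene. The first Dnaja1 window shares 218 of its 250 bases with a Dnaja1 exon, and the second Dnajb1 window 245 with a Dnajb1 exon. Across 32851 windows of the same length, 6.69% hold GAANNTTC, 7.17% hold TTCNNGAA, 12.8% hold either and 0.466% hold a run of 3 alternating units, which no member holds. These matches describe the letters only and do not show binding.

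Total counts ranged from 59.1 to 77.3 M (1e6 counts). Optn, the targeted gene, had 0.316 and 0.457 FPKM in Optn-/- acetaminophen livers, 9.17 and 9.19 FPKM in wild-type acetaminophen livers and 21.0 and 18.7 FPKM in saline livers, as the genotype labels say. FPKM is fragments for each kilobase of exon length and each 1e6 fragments, and CPM is counts per 1e6 counts. The 8 hepatocyte markers summed to 111260 to 147494 CPM in every library. Traces of other tissues differed between libraries. The 12 skeletal muscle markers summed to 0.976 and 1.01 CPM in Optn-/- acetaminophen livers, 67.1 and 77.6 CPM in wild-type acetaminophen livers, and 102.5 and 0.580 CPM in saline replicates 3 and 6, with Ckm, Myh4 and Myh1 at 0 in the 3 low libraries. The 12 intestine markers summed to 76.0 and 81.3 CPM in Optn-/- acetaminophen livers, 41.0 and 38.2 CPM in wild-type acetaminophen livers, and 61.0 and 78.5 CPM in saline replicates 3 and 6. In wild-type acetaminophen replicate 4 the 10 neuron markers summed to 140.0 CPM, against 6.68 to 21.1 CPM in the other libraries. The 8 neutrophil markers summed to 131.6 to 169.8 CPM in Optn-/- acetaminophen livers, 62.2 to 134.1 CPM in wild-type acetaminophen livers and 2.10 to 4.02 CPM in saline livers. The part of these traces and cells in the results was not tested. In whole liver, fewer cells of a type and less RNA per cell cannot be told apart.

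Acetaminophen livers carried more mRNA of 4 members, and the same 4 passed the test in Optn-/- and in wild-type mice: Hspb8, Dnajb1, Hspa8 and Bag3. Of these, Bag3, Hspb8 and Hspa8 encode parts of the BAG3 complex, and Dnajb1 is the main stress-induced J-domain partner of HSP70. Stub1, the ligase of that complex, is not a member and was not called (-0.13 in Optn-/- and -0.00 in wild-type livers, log2 scale). No member fell past the threshold in any comparison. The test was edgeR's quasi-likelihood test on counts, with Benjamini-Hochberg adjustment over the 11677 genes whose mean FPKM reached 0.5, a filter that all 10 members passed. In Optn-/- acetaminophen livers against saline, 4 of 10 members were called higher at an adjusted p under 0.05, where 12.2% of all tested genes were higher, 8.05% lower and 20.3% changed either way. In wild-type acetaminophen livers against saline, 4 of 10 members were called higher, where 8.36% of tested genes were higher, 5.92% lower and 14.3% changed either way. Both comparisons use the same 2 saline livers, so their results are not independent. The median log2 fold change of the members was 0.46 in Optn-/- acetaminophen livers and 0.84 in wild-type acetaminophen livers against saline, and that of all tested genes was -0.00 and 0.03. Scaling by total count alone, in place of TMM, moved the median of all tested genes by -0.19 and -0.22 and turned no member's direction.

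**Figure D1:**
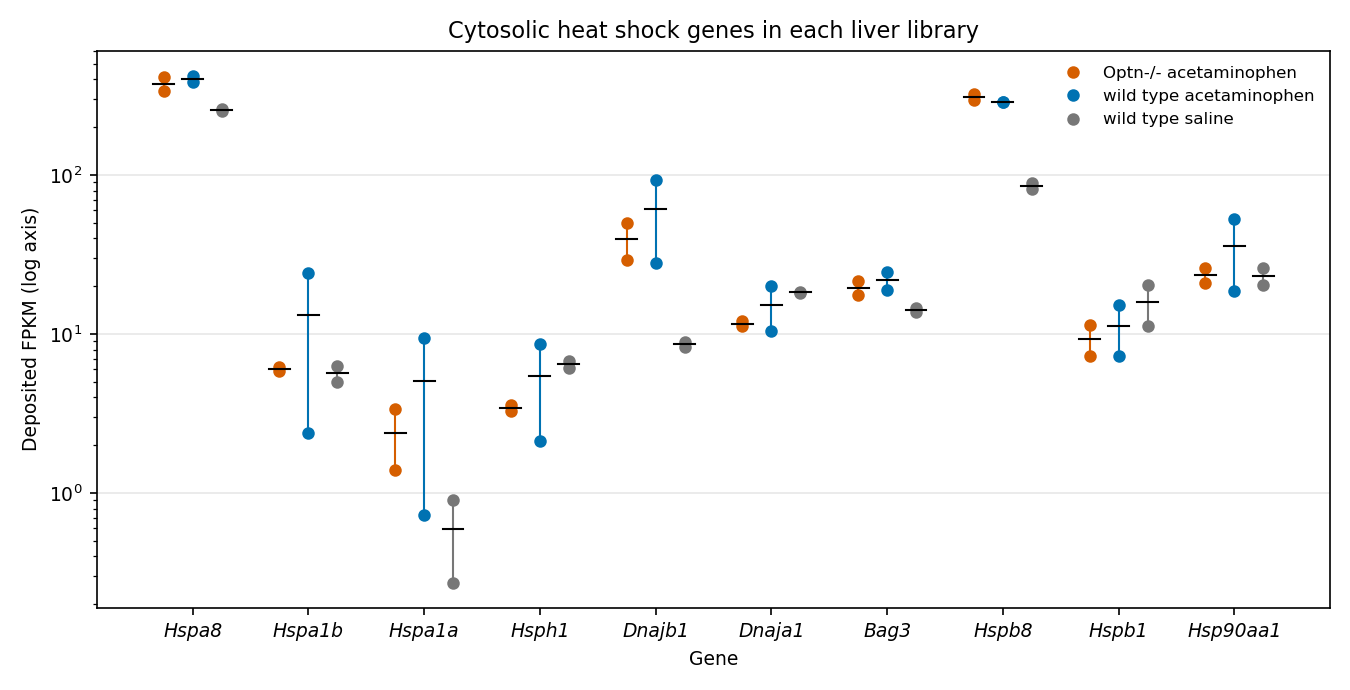
Deposited FPKM on a log axis for the 10 genes in each library, with points for single mice, lines joining the 2 mice of a group and black bars for the group mean. Hspb8, Hspa8, Dnajb1 and Bag3 lie above the saline livers in all 4 acetaminophen livers, and the mice of the wild-type acetaminophen group lie far apart for Hspa1a and Hspa1b.

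Hspb8 (ENSMUSG00000041548, GRCm38 chromosome 5, 116408491 to 116422864, minus strand) encodes the small heat shock protein that BAG3 binds. It had 324 and 298 FPKM in Optn-/- acetaminophen livers, 290.2 and 288 FPKM in wild-type acetaminophen livers and 81.4 and 89.2 FPKM in saline livers. The counts behind these values were 53077 and 39508 in the Optn-/- acetaminophen livers, 40452 and 43257 in the wild-type acetaminophen livers and 10274 and 14404 in the saline livers. All 4 treated livers lay above both saline livers, and the mice within each group differed by less than the treated and saline groups did. Hspb8 rose by a log2 fold change of 2.05 ± 0.13 (SE) in Optn-/- acetaminophen livers against saline (edgeR adjusted p = 0.00127), or 4.14-fold. In wild-type acetaminophen livers it rose by 1.97 ± 0.13 (edgeR adjusted p = 0.00179), or 3.92-fold. It was the only member past the threshold under each of 12 alternatives in both comparisons, with log2 fold changes of 1.86 to 2.11 in Optn-/- and 1.75 to 2.02 in wild-type livers.

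Bag3 (ENSMUSG00000030847, chromosome 7, 128523616 to 128546981, plus strand) encodes the exchange factor that links small heat shock proteins to HSP70. It had 17.7 and 21.6 FPKM in Optn-/- acetaminophen livers, 19.1 and 24.4 FPKM in wild-type acetaminophen livers and 13.8 and 14.5 FPKM in saline livers. Its counts were 3805 and 3761 in the Optn-/- acetaminophen livers, 3494 and 4828 in the wild-type acetaminophen livers and 2284 and 3084 in the saline livers. The treated and saline livers did not overlap, and the step was smaller than that of Hspb8. Bag3 rose by a log2 fold change of 0.65 ± 0.16 (SE) in Optn-/- acetaminophen livers (edgeR adjusted p = 0.0370) and by 0.83 ± 0.16 in wild-type acetaminophen livers (edgeR adjusted p = 0.0246), each against saline. These calls were near the threshold. In Optn-/- livers the edgeR adjusted p was 0.0606 and 0.161 without Optn-/- acetaminophen replicates 4 and 5, and 0.158 and 0.130 without saline replicates 3 and 6. In wild-type livers it was 0.0828 without wild-type acetaminophen replicate 4, and 0.118 and 0.101 without saline replicates 3 and 6. With total count scaling the edgeR adjusted p was 0.106 in Optn-/- and 0.0619 in wild-type livers. The annotation places 2610306O10Rik over 612 bases of Bag3 on the same strand, with 3 to 39 counts a library.

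Hspa8 (ENSMUSG00000015656, chromosome 9, 40800984 to 40810087, plus strand) encodes HSC70, the HSP70 that cells make without stress. It had 415 and 336 FPKM in Optn-/- acetaminophen livers, 384 and 419 FPKM in wild-type acetaminophen livers and 260.0 and 253 FPKM in saline livers. Its counts were 150011 and 98127 in the Optn-/- acetaminophen livers, 117905 and 139072 in the wild-type acetaminophen livers and 72371 and 89973 in the saline livers. It was the highest member in FPKM in every library, and the treated and saline livers did not overlap. Hspa8 rose by a log2 fold change of 0.73 ± 0.16 (SE) in Optn-/- acetaminophen livers (edgeR adjusted p = 0.0270) and by 0.86 ± 0.16 in wild-type acetaminophen livers (edgeR adjusted p = 0.0230). In Optn-/- livers the edgeR adjusted p passed the threshold without Optn-/- acetaminophen replicate 5, and was 0.0666 without replicate 4, 0.0531 and 0.0502 without wild-type acetaminophen replicates 1 and 4, and 0.110 and 0.120 without saline replicates 3 and 6. In wild-type livers it was 0.0827 and 0.0841 without wild-type acetaminophen replicates 1 and 4, and 0.0995 and 0.107 without saline replicates 3 and 6. The fold changes themselves stayed between 0.54 and 0.89 over the alternatives in the 2 comparisons.

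Dnajb1 (ENSMUSG00000005483, chromosome 8, 83608193 to 83612653, plus strand) had 50.3 and 29.1 FPKM in Optn-/- acetaminophen livers, 28.0 and 93.8 FPKM in wild-type acetaminophen livers and 8.33 and 8.95 FPKM in saline livers. The counts of Dnajb1 were 13528 and 6335 in the Optn-/- acetaminophen livers, 6403 and 23158 in the wild-type acetaminophen livers and 1728 and 2374 in the saline livers. The saline livers were close together, every treated liver lay above them, and the treated mice of each genotype differed widely. Dnajb1 rose by a log2 fold change of 2.39 ± 0.57 (SE) in Optn-/- acetaminophen livers (edgeR adjusted p = 0.0365) and by 3.01 ± 0.59 in wild-type acetaminophen livers (edgeR adjusted p = 0.0262), 5.23-fold and 8.06-fold. Without wild-type acetaminophen replicate 4 the wild-type log2 fold change was 1.93 and still passed. Without Optn-/- acetaminophen replicates 4 and 5 the edgeR adjusted p was 0.138 and 0.0872 in Optn-/- livers, and 0.0508 and 0.0517 in wild-type livers. Without saline replicates 3 and 6 it was 0.154 and 0.131 in Optn-/- livers, and 0.123 and 0.108 in wild-type livers.

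**Figure D2:**
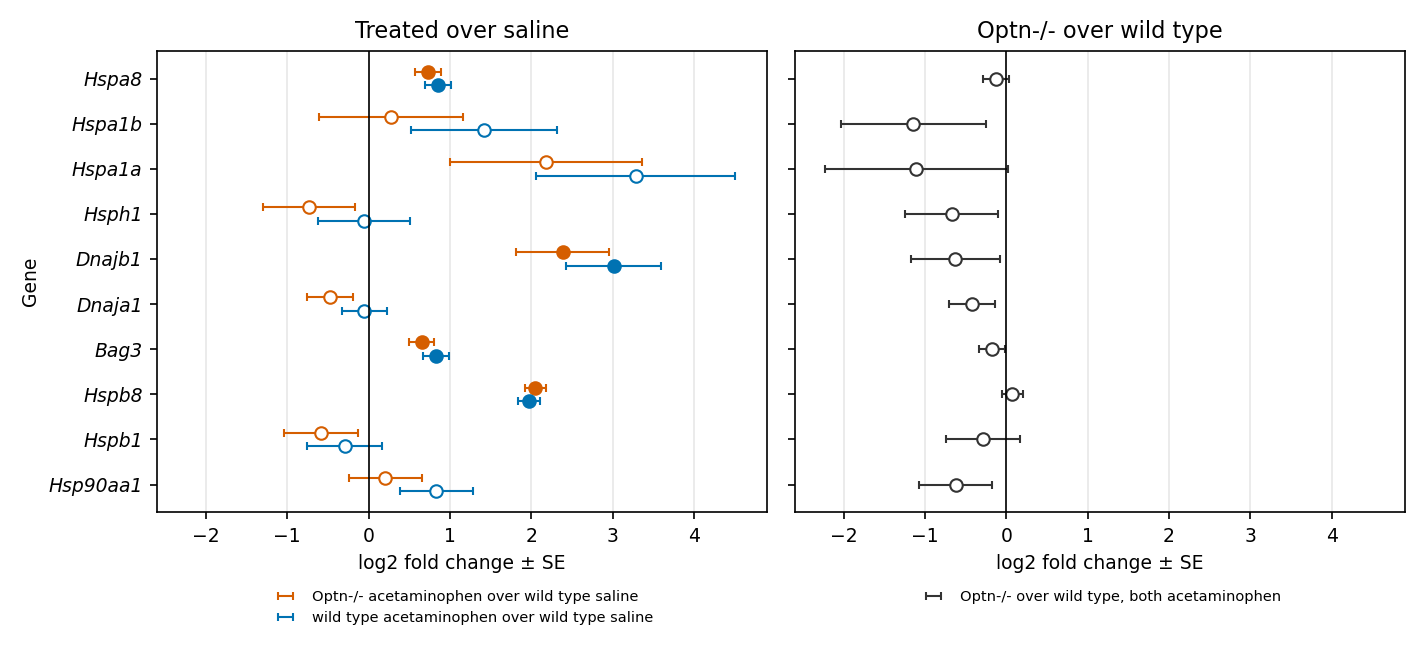
Log2 fold changes (edgeR) with standard errors for treated livers over saline livers on the left and Optn-/- over wild-type livers, both after acetaminophen, on the right; filled points passed an adjusted p under 0.05. Hspb8, Dnajb1, Hspa8 and Bag3 are filled in both treated groups on the left, and no point is filled on the right.

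The inducible HSP70 genes did not pass the test in any comparison, and they were highest in 1 wild-type acetaminophen mouse. Hspa1a (ENSMUSG00000091971, chromosome 17, 34969190 to 34972156, minus strand) and Hspa1b (ENSMUSG00000090877, chromosome 17, 34956436 to 34959238, minus strand) are single-exon genes for the HSP70 proteins that stressed cells make. Their coding sequences differ at 8 aligned bases (99.6% identity), and 47.1% of 100-base windows of the Hspa1a transcript occur unchanged in that of Hspa1b, so the split of reads between them is uncertain. Gm20481 lies over 2225 bases of Hspa1a on the opposite strand and had 0 counts in every library. Hspa1a had 1.40 and 3.38 FPKM in Optn-/- acetaminophen livers, 0.734 and 9.45 FPKM in wild-type acetaminophen livers and 0.274 and 0.911 FPKM in saline livers. Its counts ran from 53 in saline replicate 3 to 2161 in wild-type acetaminophen replicate 4, with 349 and 683 in the Optn-/- acetaminophen livers, 156 in wild-type acetaminophen replicate 1 and 224 in saline replicate 6. Hspa1b had 6.17 and 5.90 FPKM in Optn-/- acetaminophen livers, 2.40 and 24.2 FPKM in wild-type acetaminophen livers and 4.99 and 6.31 FPKM in saline livers. Hspa1b counts were 1454 and 1124 in the Optn-/- acetaminophen livers, 482 and 5219 in the wild-type acetaminophen livers and 906 and 1466 in the saline livers. Wild-type acetaminophen replicate 4 was the highest library and replicate 1 the lowest of the treated ones for both genes. Their summed counts gave 23.3 and 28.9 CPM in Optn-/- acetaminophen livers, 9.67 and 103.9 CPM in wild-type acetaminophen livers and 16.2 and 22.3 CPM in saline livers. Hspa1a did not overlap in FPKM between Optn-/- acetaminophen and saline livers, as was so for 24.3% of tested genes in the higher direction. Its log2 fold change was 2.18 ± 1.18 (SE) in Optn-/- acetaminophen livers (edgeR adjusted p = 0.244) and 3.28 ± 1.23 in wild-type acetaminophen livers (edgeR adjusted p = 0.130). For Hspa1b these were 0.28 ± 0.88 in Optn-/- acetaminophen livers (edgeR adjusted p = 0.851) and 1.42 ± 0.90 in wild-type acetaminophen livers (edgeR adjusted p = 0.334). The related Hspa1l, an HSP70 gene best known from testis, had 0 counts in wild-type acetaminophen replicate 1 and 61 to 77 counts elsewhere, and was below the filter.

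Hsph1 (ENSMUSG00000029657, chromosome 5, 149614287 to 149636376, minus strand) encodes HSP110, which releases nucleotide from HSP70. It had 3.59 and 3.27 FPKM in Optn-/- acetaminophen livers, 2.13 and 8.73 FPKM in wild-type acetaminophen livers and 6.16 and 6.81 FPKM in saline livers. Its counts were 2195 and 1623 in the Optn-/- acetaminophen livers, 1108 and 4891 in the wild-type acetaminophen livers and 2899 and 4096 in the saline livers. In FPKM the Optn-/- livers lay below the saline livers, while the wild-type acetaminophen mice lay on either side of them. The log2 fold change was -0.73 ± 0.57 (SE) in Optn-/- acetaminophen livers (edgeR adjusted p = 0.407) and -0.06 ± 0.57 in wild-type acetaminophen livers (edgeR adjusted p = 0.954). Leaving out wild-type acetaminophen replicate 4 gave a wild-type value of -1.36 (edgeR adjusted p = 0.0200), and leaving out replicate 1 gave 0.61. The Optn-/- value passed the test without wild-type acetaminophen replicate 1 or 4 (edgeR adjusted p = 0.0274 and 0.0277), since the estimate of the spread then changes while the value does not.

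Dnaja1 (ENSMUSG00000028410, chromosome 4, 40722150 to 40734964, plus strand), a farnesylated J-domain partner of HSC70, had 12.0 and 11.2 FPKM in Optn-/- acetaminophen livers, 10.5 and 20.1 FPKM in wild-type acetaminophen livers and 18.3 FPKM in each saline liver. The counts of Dnaja1 were 8732 and 6555 in the Optn-/- acetaminophen livers, 6489 and 13387 in the wild-type acetaminophen livers and 10200 and 13094 in the saline livers. In FPKM its Optn-/- livers lay below the saline livers, and 1 wild-type acetaminophen mouse lay above and the other below them. The log2 fold change was -0.47 ± 0.28 (SE) in Optn-/- acetaminophen livers (edgeR adjusted p = 0.278) and -0.05 ± 0.28 in wild-type acetaminophen livers (edgeR adjusted p = 0.916). Hsph1 and Dnaja1 were the 2 members that did not overlap in the lower direction between Optn-/- acetaminophen and saline livers, as was so for 44.5% of tested genes. In wild-type acetaminophen livers no member lay wholly below saline in FPKM, against 45.1% of tested genes, and 4 lay wholly above, against 21.1%. These shares use FPKM, which carries no TMM scaling. Total count scaling moved the median log2 fold change of all tested genes by -0.19 in Optn-/- and -0.22 in wild-type livers. In wild-type livers 976 genes were called higher and 691 lower with TMM, against 721 and 1470 with total count scaling. The shares are therefore not read as a fall of that many genes.

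Hspb1 (ENSMUSG00000004951, chromosome 5, 135887919 to 135889563, plus strand) encodes HSP27, a small heat shock protein that also binds actin. It had 11.3 and 7.25 FPKM in Optn-/- acetaminophen livers, 7.30 and 15.2 FPKM in wild-type acetaminophen livers and 20.5 and 11.2 FPKM in saline livers. The Hspb1 counts were 983 and 509 in the Optn-/- acetaminophen livers, 539 and 1208 in the wild-type acetaminophen livers and 1367 and 956 in the saline livers. The 3 groups overlapped, and by the difference in FPKM the saline mice lay further apart than the mice of either treated group. By the ratio in CPM the wild-type acetaminophen mice lay further apart, 2.08-fold against 1.83-fold in saline. The log2 fold change was -0.58 ± 0.46 (SE) in Optn-/- acetaminophen livers (edgeR adjusted p = 0.410) and -0.30 ± 0.46 in wild-type acetaminophen livers (edgeR adjusted p = 0.704). Of the 2 small heat shock proteins of the set, Hspb8 rose in both treated groups and Hspb1 passed the test in neither. The difference between the 2 genes was not tested.

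Hsp90aa1 (ENSMUSG00000021270, chromosome 12, 110690605 to 110702728, minus strand) encodes the stress-induced HSP90. It had 21.0 and 26.2 FPKM in Optn-/- acetaminophen livers, 18.8 and 52.9 FPKM in wild-type acetaminophen livers and 25.9 and 20.2 FPKM in saline livers. The counts of Hsp90aa1 were 6922 and 6997 in the Optn-/- acetaminophen livers, 5272 and 16044 in the wild-type acetaminophen livers and 6593 and 6593 in the saline livers. All libraries but wild-type acetaminophen replicate 4 lay between 18.8 and 26.2 FPKM. The log2 fold change was 0.21 ± 0.44 (SE) in Optn-/- acetaminophen livers (edgeR adjusted p = 0.773) and 0.83 ± 0.45 in wild-type acetaminophen livers (edgeR adjusted p = 0.262). The constitutive HSP90 gene Hsp90ab1 had 226 and 229.95 FPKM in Optn-/- acetaminophen livers, 199.98 and 275 FPKM in wild-type acetaminophen livers and 259 and 227 FPKM in saline livers, and was not called in any comparison. The FPKM ratio of Hsp90aa1 to Hsp90ab1 was 0.192 in wild-type acetaminophen replicate 4 and between 0.0892 and 0.114 in the other libraries.

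In 8 of the 10 members, the mice of the wild-type acetaminophen group differed from each other more than in most tested genes. In CPM, replicate 4 exceeded replicate 1 12.9-fold for Hspa1a, 10.1-fold for Hspa1b, 4.10-fold for Hsph1, 3.36-fold for Dnajb1 and 2.82-fold for Hsp90aa1. Those ratios were larger, in absolute log2 terms, than 99.2%, 99.0%, 97.8%, 97.2% and 96.2% of tested genes. Hspb1 (2.08-fold) and Dnaja1 (1.91-fold) exceeded 92.6% and 90.9% of tested genes. Bag3 (1.28-fold) exceeded 65.3% of tested genes. Hspa8 at 1.09-fold exceeded 30.7% of them, and Hspb8 at 0.993-fold 2.55%. The Optn-/- acetaminophen mice differed by 0.956-fold for Hspa1b, 0.914-fold for Hsph1 and 0.579-fold for Dnajb1 (replicate 5 over 4), and the saline mice by 1.26-fold, 1.10-fold and 1.07-fold (replicate 6 over 3). Hspa1a also differed in those groups, 2.42-fold in Optn-/- (349 and 683 counts) and 3.30-fold in saline livers (53 and 224 counts). In Optn-/- livers Hspa1a, Dnajb1 and Hspb1 exceeded 96.5%, 91.1% and 86.8% of tested genes. Hsp90aa1, Hspa8 and Bag3 exceeded 61.5%, 59.8% and 56.9% there, and the remaining members 14.8% to 29.0%. In saline livers Hspa1a and Hspb1 exceeded 97.8% and 90.9% of tested genes. Hsp90aa1 and Hspa1b exceeded 69.5% and 67.3% there, and the remaining members 0.417% to 37.0%.

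**Figure D3:**
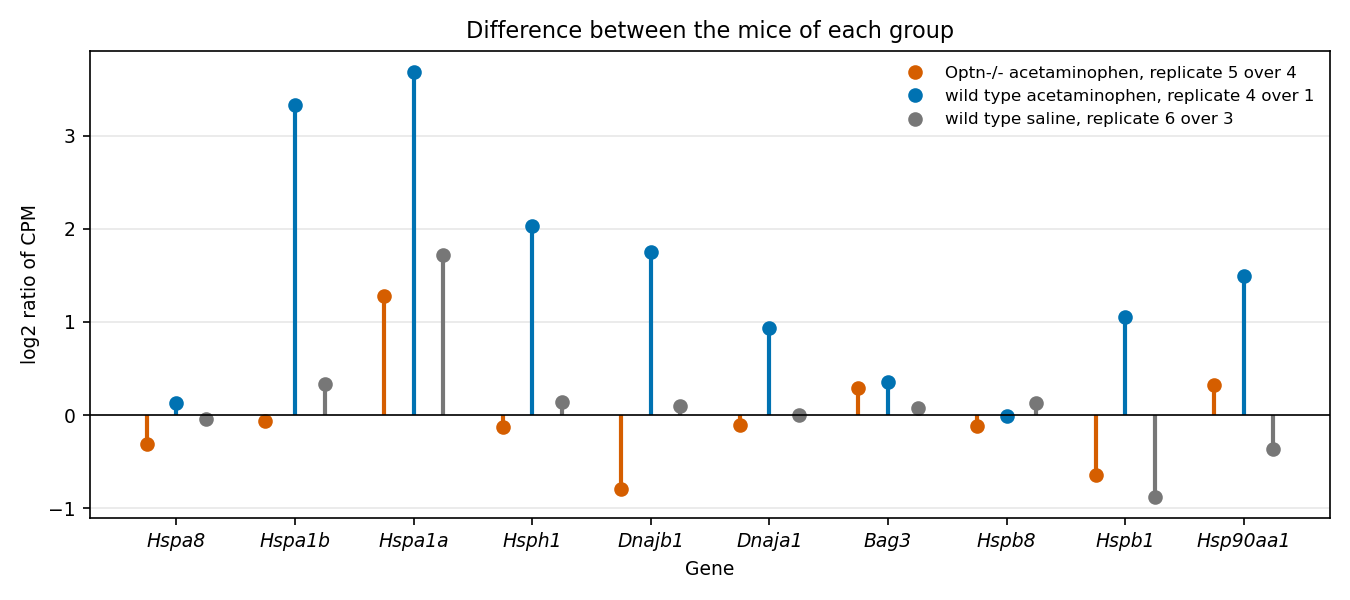
Log2 ratio of CPM between the 2 mice of each group for the 10 genes, with 1 point for each group and gene. The wild-type acetaminophen points stand above 0 for every gene but Hspb8, up to 3.68 for Hspa1a.

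The library with high inducible chaperones also held the neural transcripts. In wild-type acetaminophen replicate 4 all 10 neuron markers and all 8 glia markers were detected, summing to 140.0 and 58.7 CPM, and the 5 hypothalamus and pituitary markers summed to 22.0 CPM. In Optn-/- acetaminophen livers these 3 lists summed to 6.68 to 10.2, 4.74 to 6.22 and 0.246 to 0.384 CPM, with Stmn2, Nefl, Gap43 and Elavl4 of the neuron list and Mog, S100b and Sox10 of the glia list at 0 in both. In wild-type acetaminophen replicate 1 they summed to 15.8, 8.40 and 0.288 CPM, and in saline livers to 12.5 to 21.1, 6.88 to 10.8 and 0.0527 to 0.254 CPM. Replicate 4 differed from replicate 1 in other marker lists too. Red cell markers summed to 3962 CPM in replicate 4 against 9383 in replicate 1, and neutrophil markers to 62.2 against 134.1. Monocyte markers summed to 73.1 against 121.2 CPM, and T and NK cell markers to 8.98 against 18.6. Smooth muscle markers were higher in replicate 4, 32.9 against 19.6 CPM. The part of these transcripts and cells in the levels of the heat shock genes was not tested.

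**Figure D4:**
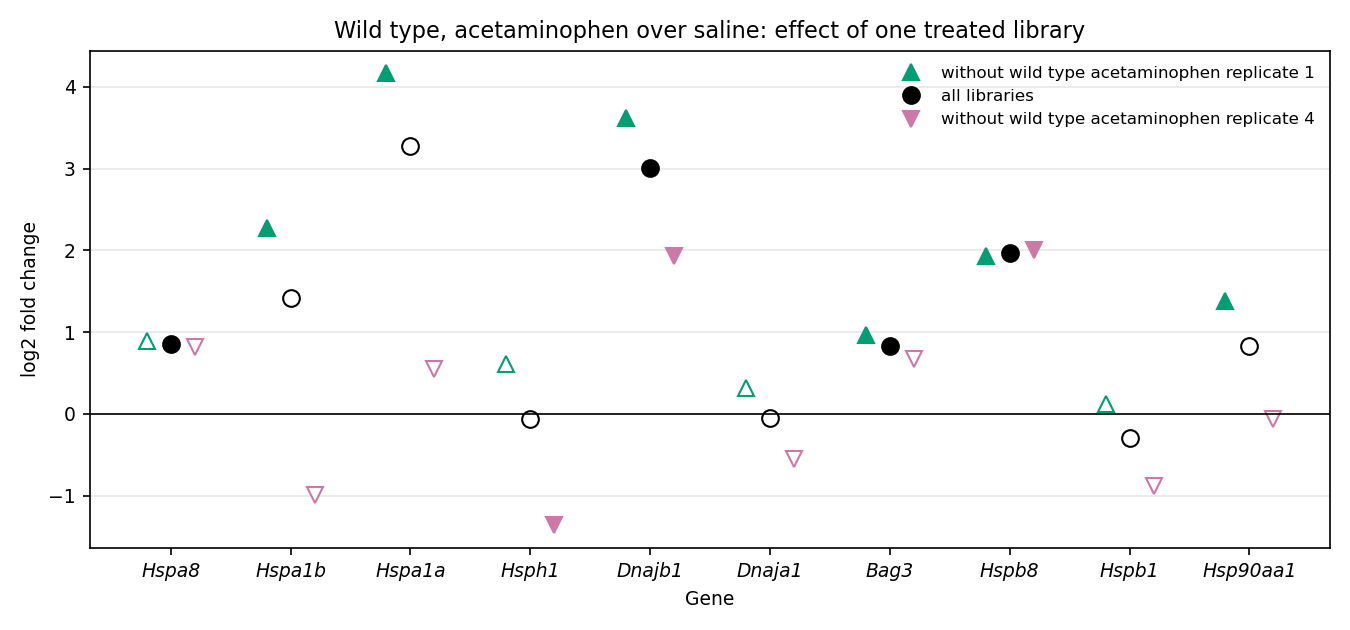
Log2 fold change of wild-type acetaminophen over saline livers for the 10 genes with all libraries (circles), without wild-type acetaminophen replicate 1 (upward triangles) and without replicate 4 (downward triangles); filled symbols passed an adjusted p under 0.05. Hspb8 hardly moves, while Hspa1b lies at 2.28 without replicate 1 and at -0.99 without replicate 4.

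With only 1 wild-type acetaminophen mouse kept, taken to vary like the other groups, the calls of the inducible genes depended on which mouse it was. Without replicate 1, Hspa1a (4.17, edgeR adjusted p = 0.0488), Hspa1b (2.28, edgeR adjusted p = 0.00969) and Hsp90aa1 (1.38, edgeR adjusted p = 0.0374) were called higher than in saline livers. Without replicate 4 the values of Hspa1b and Hsp90aa1 were -0.99 and -0.06, that of Hspa1a was 0.55, and none of these passed. With 1 library left out, the log2 fold change of Hspb8 against saline stayed between 1.96 and 2.11 in Optn-/- livers. In wild-type livers it stayed between 1.92 and 2.01. That of Dnajb1 lay between 1.91 and 2.73 in Optn-/- and between 1.93 and 3.62 in wild-type livers. With the library set (muscle or intestinal traces) as a term, Hspb8 was the only member called in each comparison against saline. Of all 11677 tested genes, 812 were then called in wild-type livers, against 1667 without that term.

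Between Optn-/- and wild-type livers after acetaminophen, no member passed the test, where 0.103% of tested genes (12 genes) did, 0.0514% higher and 0.0514% lower. No member reached an unadjusted p under 0.05 in edgeR, and DESeq2 and limma also called 0 members. For 9 members the log2 fold change was below 0, from -1.14 ± 0.89 (SE) for Hspa1b to -0.12 ± 0.16 for Hspa8, and that of Hspb8 was 0.08 ± 0.13, with edgeR adjusted p-values of 0.720 to 0.896. The median over the members was -0.52, against -0.00 over all tested genes. Without wild-type acetaminophen replicate 4, 7 of those 9 values were above 0, among them Hspa1b at 1.27, Hspa1a at 1.63 and Dnajb1 at 0.45. Hspb8 was the only member whose groups did not overlap in FPKM, as was so for 23.1% of tested genes in that direction and 15.9% in the other. Its fitted log2 fold change was -0.01 without Optn-/- acetaminophen replicate 4, although replicate 5 alone still lay above both wild-type mice in FPKM. FPKM carries no TMM scaling. Over all 6 libraries the TMM factor was 0.981 in Optn-/- acetaminophen replicate 5. It was 0.922 and 0.966 in wild-type acetaminophen replicates 1 and 4. The order of these mice in FPKM therefore need not hold on the scale that was tested.

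The precision of that comparison differed between members. The 95% interval of the Optn-/- over wild-type ratio was 0.850 to 1.31 for Hspb8, 0.701 to 1.20 for Hspa8 and 0.678 to 1.16 for Bag3. It was 0.256 to 1.65 for Dnajb1, 0.0995 to 2.06 for Hspa1b and 0.0682 to 3.17 for Hspa1a. These intervals allow differences of several-fold in the inducible HSP70 genes and of up to 1.31-fold in Hspb8. Every Optn-/- library was of the set with intestinal traces and both wild-type acetaminophen libraries of the set with muscle traces, so set and genotype cannot be told apart in a direct comparison. With the set as a term, fixed by the saline pair alone, Hspb8 was -0.03 and Hspb1 was 0.61.

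The balance between members differed between treated and saline livers. Summed over the 10 genes, FPKM was 863 and 742 in Optn-/- acetaminophen livers, 763 and 956 in wild-type acetaminophen livers and 439.6 and 429 in saline livers. Hspb8 made up 37.6% and 40.2% of the sum in Optn-/- acetaminophen livers, 38.1% and 30.1% in wild-type acetaminophen livers and 18.5% and 20.8% in saline livers. Hspa8 made up 48.1% and 45.3% in Optn-/- acetaminophen livers, 50.3% and 43.9% in wild-type acetaminophen livers and 59.1% and 58.9% in saline livers. These 2 genes made up most of the summed FPKM in every library, while Hspa1a had the lowest group mean in all 3 groups. The FPKM ratio of Dnajb1 to Dnaja1 was 4.17 and 2.60 in Optn-/- acetaminophen livers, 2.66 and 4.66 in wild-type acetaminophen livers and 0.456 and 0.488 in saline livers. By FPKM Dnaja1 was the more abundant of these J-domain partners in saline livers, and Dnajb1 in all 4 treated livers. By counts Dnaja1 was slightly ahead in 2 treated livers. These were Optn-/- acetaminophen replicate 5 (6555 against 6335) and wild-type acetaminophen replicate 1 (6489 against 6403). In the other treated livers Dnajb1 was also ahead by counts. The principal transcript is 3376 bases long for Dnaja1 and 2996 for Dnajb1. Levels of different genes depend on the length used. The length implied by counts and FPKM is 1.09 times that of all annotated exons for each member. All annotated exons are 2.56 times the principal transcript for Dnaja1, 1.91 times for Hsph1 and 1.80 times for Hspa8. Per kilobase of the principal transcript, Dnajb1 averaged 46.1 in Optn-/- acetaminophen livers, 70.6 in wild-type acetaminophen livers and 10.1 in saline livers, on a scale per 1e6 counts. On that scale Dnaja1 averaged 32.3 in Optn-/- acetaminophen livers, 42.5 in wild-type acetaminophen livers and 51.1 in saline livers.

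The other chaperone genes give the background of the family. Of 62 listed genes in 7 groups, 53 were tested. In Optn-/- acetaminophen livers against saline, 2 were called higher and 8 lower, where 12.2% of all tested genes were called higher and 8.05% lower. In wild-type acetaminophen livers 1 was called higher and 5 lower, where the shares of all tested genes were 8.36% and 5.92%. The balance depended on the tool and scaling: with total count scaling the counts were 1 higher and 15 lower in Optn-/- livers and 0 and 10 in wild-type livers. With limma they were 1 and 14 in Optn-/- livers and 0 and 9 in wild-type livers, and with DESeq2 4 and 13 in Optn-/- livers and 5 and 9 in wild-type livers. The median log2 fold changes were -0.12 in Optn-/- and -0.06 in wild-type livers, against -0.00 and 0.03 over all tested genes. Among 14 genes of the HSP90 partner and its co-chaperones, 1 was called higher and 5 lower in Optn-/- acetaminophen livers, and 1 higher and 4 lower in wild-type acetaminophen livers. Fkbp4, an immunophilin of steroid receptor complexes, had 24.5 and 19.5 FPKM in Optn-/- acetaminophen livers, 26.1 and 28.1 FPKM in wild-type acetaminophen livers and 67.1 and 58.8 FPKM in saline livers. It fell by 1.34 on the log2 scale in Optn-/- (SE 0.17, edgeR adjusted p = 0.00607) and by 1.01 in wild-type livers (SE 0.17, edgeR adjusted p = 0.0173). Ahsa1, an activator of the HSP90 ATPase, fell by 0.77 in Optn-/- (SE 0.13, edgeR adjusted p = 0.0140) and by 0.62 in wild-type livers (SE 0.13, edgeR adjusted p = 0.0317). Chordc1 and Ahsa2 were also lower in both, and Stip1, which joins HSP70 to HSP90, in Optn-/- livers. The genes called higher were Tomm34, which binds HSP70 and HSP90, in Optn-/- livers (0.95 ± 0.18) and Fkbp5, a glucocorticoid-induced immunophilin, in wild-type livers (0.84 ± 0.20), a call that total count scaling and limma did not make. Chordc1 in wild-type livers, and Stip1 and Ahsa2 in Optn-/- livers, are named because their values were seen.

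Among 12 other J-domain genes, Dnajb5 rose (0.92 ± 0.22) and Dnajb2 fell (-1.11 ± 0.22) in Optn-/- acetaminophen livers against saline, and none was called in wild-type livers. St13, an HSP70-interacting co-chaperone, fell in Optn-/- livers (-0.61 ± 0.14), as the only gene called among 8 exchange factors and co-chaperones. Stub1, the ligase of the BAG3 complex, was at -0.13 ± 0.11 in Optn-/- and -0.00 ± 0.11 in wild-type livers and was not called. No gene was called among the 5 other HSP70 and HSP110 genes, the 2 other small heat shock genes or the 8 subunits of the chaperonin CCT that were tested. Cryab, a small heat shock protein related to Hspb8, was at 0.41 ± 0.35 in Optn-/- and 0.66 ± 0.35 in wild-type livers and was not called. Hspb6, the other small heat shock gene tested, went the other way and was not called either. It was at -0.91 ± 0.25 in Optn-/- (edgeR adjusted p = 0.0527) and -0.78 ± 0.25 in wild-type livers (edgeR adjusted p = 0.0916). Of 4 tested heat shock factors and regulators, Hsf4 fell in Optn-/- (-1.36 ± 0.32) and Hsf2 in wild-type livers (-0.99 ± 0.16), and neither was called in Optn-/- over wild-type livers. Hsf1 mRNA was at 0.13 ± 0.19 in Optn-/- and 0.06 ± 0.19 in wild-type livers and was not called. In Optn-/- against wild-type livers after acetaminophen 0 of the 53 genes were called, with 2 at an unadjusted p under 0.05 in edgeR and 0 called by DESeq2 or limma. The counts of calls against saline changed when 1 library was left out, and calls over all tested genes were fewer in each such fit. The changed counts are therefore not read as a result about these genes.

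**Figure D5:**
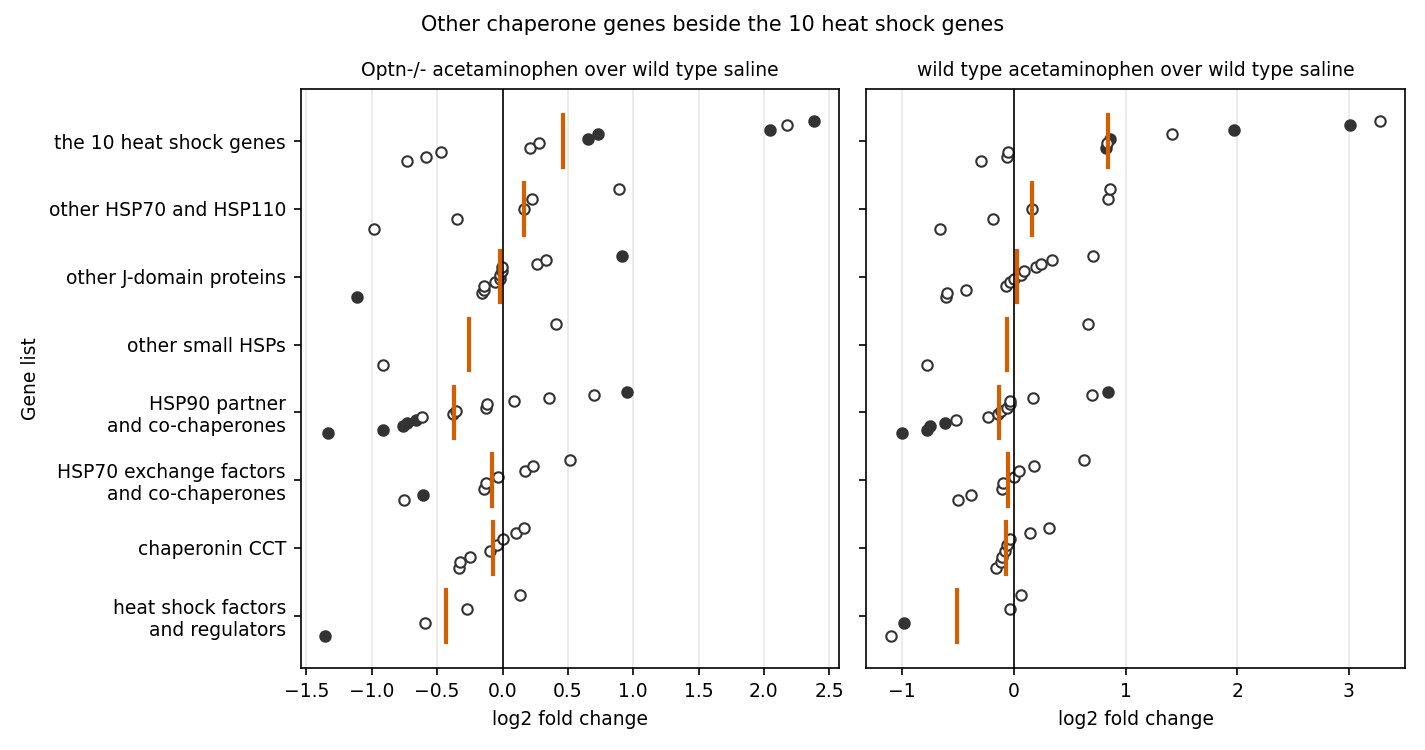
Log2 fold changes against saline livers of the 10 heat shock genes and of 7 other chaperone groups, for Optn-/- acetaminophen livers on the left and wild-type acetaminophen livers on the right; each point is a gene, filled where its adjusted p was under 0.05, and orange bars are medians. The filled points of the 10 heat shock genes lie above 0, and most filled points of the HSP90 co-chaperones lie below 0.

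Over the 6 libraries, the genes whose log2(CPM + 1) followed Hspb8 most closely were Pam, Ier2, Ifrd1, Elmsan1 and Mthfd2, with Pearson r of 0.999 for Pam to 0.998 for Mthfd2. Ier2, an immediate early gene, had 304.7 and 249 CPM in Optn-/- acetaminophen livers, 239.6 and 253 CPM in wild-type acetaminophen livers and 20.5 and 21.0 CPM in saline livers, the same split into treated and saline livers as Hspb8. The summed Hspa1a and Hspa1b profile was followed most closely by Klc1, Vgll4, Rab11fip4, Oxct1 and Med27 (r of 0.994 for Klc1 to 0.973 for Med27). Klc1, a kinesin light chain, had 14.5 and 15.8 CPM in Optn-/- acetaminophen livers, 10.2 and 26.5 CPM in wild-type acetaminophen livers and 13.6 and 14.7 CPM in saline livers, again highest in wild-type acetaminophen replicate 4 and lowest in replicate 1. Hsp90aa1 was followed by Peg13, Camk2n2, Tspyl4, Oxct1 and Ankfy1 (r of 0.990 for Peg13 to 0.972 for Ankfy1). Peg13 had 5.05 and 5.97 CPM in Optn-/- acetaminophen livers, 3.55 and 20.5 CPM in wild-type acetaminophen livers and 6.85 and 4.93 CPM in saline livers. These correlations are over the same 6 libraries and describe these livers only. The last 2 profiles are highest in wild-type acetaminophen replicate 4, the library with the neural transcripts.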

How the data were processed

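Poly(A) RNA of 6 mouse livers was sequenced as paired ends, per the labels' protocols, which speak of an adipose type while every tissue label says liver. The authors deposited 1 table with a raw count, in whole numbers, and an FPKM value for every gene in every library, per the file headers. The submitters' processing notes name Bowtie 0.12.2 and the build mm8. The counter, and whether it used strand, was not given in the sources used here. Coordinates equal those of GRCm38 (GENCODE M21) for 51954 of 55144 shared genes (94.2%) and are given as GRCm38. Among the members, only Dnaja1 had a start or end that differed from GENCODE M21. Every column of values belonged to a sample of the series.

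Counts were tested with edgeR 4.0.16 in R 4.3.3: TMM scaling, quasi-likelihood test, 1 model of 3 group means over 6 libraries, genes whose mean FPKM reached 0.5, and Benjamini-Hochberg adjusted p under 0.05. A standard error is the log2 fold change divided by the square root of its F statistic, and 95% intervals use the residual and prior degrees of freedom. Alternatives were DESeq2 1.42.0, limma 3.58.1 on log2(FPKM + 0.5), other scaling and filters, the library set as a term, and leaving out each library. Scripts were tested on simulated data. The library sets are no batch named by the labels. A library is of the muscle set where its summed muscle markers exceed its summed intestine markers, and of the intestinal set otherwise. Libraries of the muscle set also held 38.2 to 61.0 CPM of intestine markers. A count of 0 allows up to 3 counts, 0.0507 CPM in the smallest library, and this floor covers counting error only. The series' text says the animals were separate individuals and no more, so a p-value here reflects only how far these samples spread. The smallest two-sided p of an exact permutation test with 2 animals a group is 0.333, so none was used.

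The members and the other lists were chosen with earlier results of these data known. All members are named; of the other lists, up to 4 genes a list with the smallest p in each comparison, all called genes where there were no more than 4, and Hsp90ab1, Hsf1 and Cryab always. For 3 profiles, the 5 genes with the highest Pearson correlation over the libraries are named.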

Additional observations from a re-analysis of the deposited data

How the results depend on the processing

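No paired analysis was possible because the groups share fewer than 2 replicate numbers. Over the alternatives, 298 of 357 fold changes of the members kept their direction and side of the threshold, 35 lost and 6 gained a call, and 18 turned direction; the cause was not tested except where fewer libraries or genes entered. Genes called in Optn-/- acetaminophen against saline livers numbered 2366 (1426 higher, 940 lower), 3620 with DESeq2, 1035 with a mean FPKM of at least 5, 960 with the library set as a term, 2890 (1134 higher, 1756 lower) with total count scaling, and 750 to 2201 with 1 library left out. In wild-type acetaminophen against saline livers they numbered 1667 (976 higher, 691 lower), 3107, 819, 812, 2191 (721 higher, 1470 lower) and 494 to 1263. In Optn-/- against wild-type acetaminophen livers they numbered 12, 287 with DESeq2, 37 without a filter, 27 with limma, 3 with the set term and 1 to 28 with 1 library left out. Members called numbered 4 in each treated group, 1 with the set term, and 1 to 4 in Optn-/- and 1 to 6 in wild-type livers with 1 library left out; between genotypes they numbered 0 in all 12 alternatives.

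With 1 library left out, log2 fold changes that turned direction in wild-type acetaminophen against saline livers ranged from -0.99 to 2.28 for Hspa1b, -0.88 to 0.22 for Hspb1, -0.56 to 0.32 for Dnaja1, -1.36 to 0.61 for Hsph1 and -0.060 to 1.38 for Hsp90aa1. In Optn-/- against wild-type acetaminophen livers the ranges were -1.99 to 1.63 for Hspa1a, -1.999 to 1.27 for Hspa1b, -0.70 to 0.29 for Hspb1, -0.0090 to 0.16 for Hspb8, -1.23 to 0.45 for Dnajb1, -0.79 to 0.083 for Dnaja1, -1.34 to 0.63 for Hsph1, -0.31 to 0.044 for Hspa8 and -1.17 to 0.27 for Hsp90aa1. With the set term, Hspb1 was 0.61 and Hspb8 -0.025. Hspa1a gave no value with a mean FPKM of at least 5, since it was filtered out. Total counts were 59.1 to 77.3 M, and the lowest count of a member was 53, for Hspa1a in saline replicate 3.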
